A study of Homo sapiens with 2 samples.

Results

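Ribosomal protein genes were selected from the deposited expression matrix by symbol: RPL or RPS followed by a number, the stalk genes RPLP0, RPLP1 and RPLP2, and RPSA. The rule found 85 of 33694 genes, 53 for proteins of the large subunit and 32 for proteins of the small subunit, on 21 chromosomes. Of these, 83 reached 20 CPM (UMI counts of a gene scaled to the group's total, as CPM) in at least 1 line. The other 2, the muscle paralog RPL3L and the testis paralog RPL10L, stayed at or under 0.907 CPM and enter no count. FAU and RACK1 also encode proteins of the ribosome, but their symbols fall outside the rule and they were read separately.

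The cells belong to 3 lines made by gene editing from C1, an epithelial derivative of HMLER, which is a RAS-transformed human mammary epithelial line. C1-sgKMT2D carries a knockout of KMT2D, a histone H3 methyltransferase that acts at enhancers. C1-sgEED carries a knockout of EED, a subunit of the Polycomb repressive complex. C1-sgControl carries a control guide. The labels name no treatment or dose, and all lines shared the same culture medium. The lines were compared to learn how KMT2D and EED bear on the passage of epithelial cells into mesenchymal states. The lines were stained with hashtag antibodies and read as 1 pooled library, so each line is 1 sample, no p-value is given, and every interval below is a 95% interval for counting error only. The library titles speak of mixed clones. The sources used here do not give the number of clones in each line, so a mix of clones and a change within cells cannot be told apart.

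After filtering, 2348 C1-sgKMT2D, 2338 C1-sgEED and 1720 C1-sgControl cells carried a single hashtag, with 13957344, 10256770 and 9927122 gene UMIs and medians of 5526, 3915 and 5672.5 UMIs per cell. Cells with more VIM (vimentin, a mesenchymal filament) than KRT17 (a basal keratin) UMIs are called VIM-rich, and those with more KRT17 than VIM UMIs KRT17-rich. This gave 1164 VIM-rich and 1157 KRT17-rich C1-sgKMT2D cells, and 1195 VIM-rich and 1111 KRT17-rich C1-sgEED cells. C1-sgControl had 71 VIM-rich cells, too few and too weak in mesenchymal markers for a comparison (ZEB1 had 0 CPM in them), and 1633 KRT17-rich cells. The split follows most other markers in the knockout lines. In VIM-rich over KRT17-rich C1-sgEED cells, 8 of 8 mesenchymal markers were at least 1.2-fold higher (31.5% of all genes). There 5 of 5 measured basal markers were at least 1.2-fold lower (25.2%). In C1-sgKMT2D the counts were 6 of 6 measured (19.0%) and 5 of 5 (19.2%). These lists include VIM and KRT17, which made the split and so had to differ. Of 4 measured general epithelial markers, 3 were at least 1.2-fold lower in VIM-rich C1-sgEED cells and 4 in VIM-rich C1-sgKMT2D cells. KRT8 had 422 CPM in VIM-rich and 482 CPM in KRT17-rich C1-sgEED cells. Markers of immune cells (PTPRC at 0), endothelial cells (CDH5 at 0) and erythroid cells (HBB at 0) summed to at most 1.91 CPM in any group. The targeted transcripts say little about the labels, because tags read at the 3′ end can persist after an edit. KMT2D was at 5.02 CPM in C1-sgKMT2D and 4.63 CPM in C1-sgControl (ratio 1.08, 0.736 to 1.61). EED was at 13.4 CPM in C1-sgEED and 13.6 CPM in C1-sgControl (ratio 0.982, 0.769 to 1.26).

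Ribosomal proteins assemble with ribosomal RNA into the small subunit, which reads the messenger RNA, and the large subunit, which joins amino acids. Their genes are among the most abundantly transcribed in growing cells, and most of their transcripts begin with an uninterrupted run of pyrimidines, the TOP motif, through which LARP1 and the mTOR pathway control their translation and stability. A few have paralogs, expressed at lower levels or in particular tissues, that encode alternative versions of the same protein.

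RefSeq promoter windows on GRCh38.p14, running from 250 bases before to 50 bases after the annotated start, matched 68 of the 85 genes. The longest unbroken run of C and T on the gene's strand, within 20 bases on each side of the start, had a median of 11 bases over the 84 windows of these genes and 5 bases over all 35116 windows. A run of at least 8 bases was present in 76.2% of the windows of ribosomal protein genes and 17.5% of all windows. The letters TTTCC, searched on both strands in the same stretch and overlapping the pyrimidine run where they lie inside it, were present in 45.2% of the windows of ribosomal protein genes and 11.6% of all windows. The following 11 windows of 60 bases, centred on the start, belong to genes whose values carry the results below. Capitals mark the longest run of C and T that lies within 20 bases of the start; runs farther out are left in lower case.

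RPSA, chr3:39406690-39406749, plus strand: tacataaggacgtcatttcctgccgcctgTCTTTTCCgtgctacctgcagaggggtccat
RPS24, chr10:78033833-78033892, plus strand: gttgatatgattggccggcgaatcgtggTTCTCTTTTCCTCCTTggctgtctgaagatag
RPL26, chr17:8383164-8383223, minus strand: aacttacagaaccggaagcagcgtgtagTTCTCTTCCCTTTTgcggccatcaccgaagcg
RPLP0, chr12:120201082-120201141, minus strand: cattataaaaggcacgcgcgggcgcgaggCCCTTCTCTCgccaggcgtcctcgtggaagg
RPL13, chr16:89560652-89560711, plus strand: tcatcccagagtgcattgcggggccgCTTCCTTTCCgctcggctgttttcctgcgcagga
RPS14, chr5:150449710-150449769, minus strand: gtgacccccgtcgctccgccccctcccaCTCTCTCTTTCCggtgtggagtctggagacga
RPS23, chr5:82278325-82278384, minus strand: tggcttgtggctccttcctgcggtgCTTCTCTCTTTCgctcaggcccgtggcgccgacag
RPL22, chr1:6199566-6199625, minus strand: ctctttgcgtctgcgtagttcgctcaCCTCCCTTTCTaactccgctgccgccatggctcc
RPL22L1, chr3:170870166-170870225, minus strand: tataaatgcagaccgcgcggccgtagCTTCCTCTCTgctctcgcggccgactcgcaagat
RPS27, chr1:153990732-153990791, plus strand: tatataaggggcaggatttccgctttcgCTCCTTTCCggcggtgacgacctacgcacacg
RPS27L, chr15:63157448-63157507, minus strand: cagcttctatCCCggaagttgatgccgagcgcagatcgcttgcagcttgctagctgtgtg

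Within 20 bases of the start, 10 of the windows shown hold a run of 8 to 16 bases. The paralog RPS27L has none longer than 3 bases in that stretch. A match in these letters is a description of the window and says nothing of what binds there.

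The ribosomal protein share of all gene UMIs was highest in C1-sgKMT2D. It was 26.9% in C1-sgKMT2D, 22.6% in C1-sgEED and 23.6% in C1-sgControl. The share ratio to C1-sgControl was 1.143 (1.141 to 1.145) for C1-sgKMT2D and 0.9592 (0.9575 to 0.961) for C1-sgEED. Both comparisons use the same control cells. The order held in KRT17-rich cells alone, with 26.3% in C1-sgKMT2D, 22.6% in C1-sgEED and 23.6% in C1-sgControl. VIM-rich cells had 27.9% in C1-sgKMT2D and 22.7% in C1-sgEED. Within C1-sgKMT2D the share was thus 1.06 times (1.058 to 1.062) as high in VIM-rich as in KRT17-rich cells, while within C1-sgEED the ratio was 1.005 (1.002 to 1.007). The whole-line ratio of C1-sgEED over C1-sgControl changed side with the filter: with no limit on mitochondrial UMIs it was 1.001. In KRT17-rich cells it was 0.9912 with no limit. That limit and the minimum of genes together removed 5.89% of the single-hashtag C1-sgKMT2D barcodes, 6.78% of those of C1-sgEED and 27.2% of those of C1-sgControl. The barcodes over the mitochondrial limit held ribosomal protein shares of 9.4%, 8.99% and 7.45% in those lines.

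**Figure D1:**
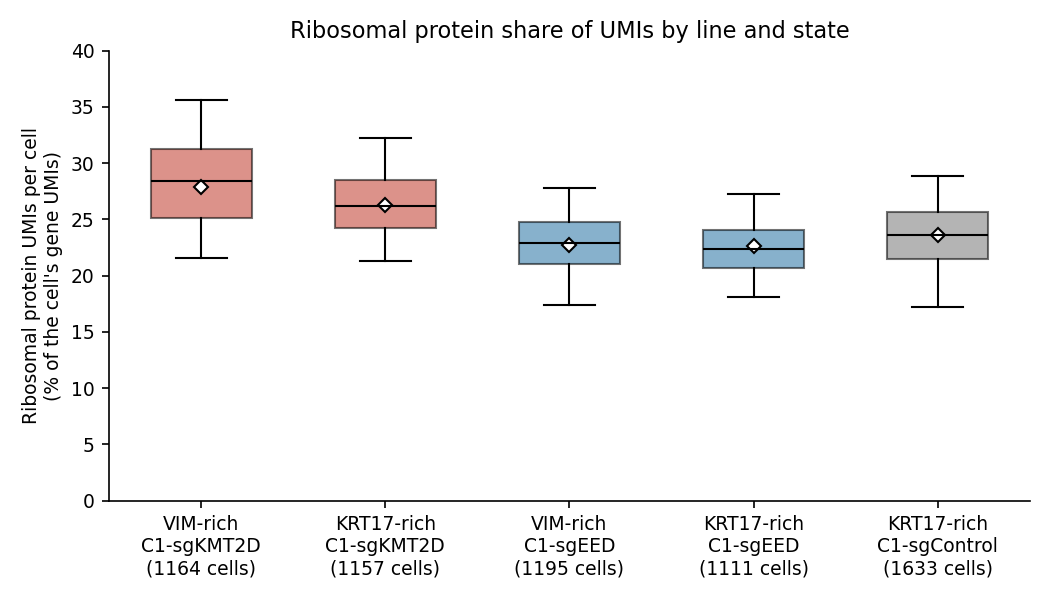
Ribosomal protein UMIs as a percentage of each cell's gene UMIs, by line and state. Boxes give the quartiles and median over cells, whiskers the 5th and 95th percentiles, and diamonds the pooled share of the group; the C1-sgKMT2D diamonds lie at 27.9% and 26.3% and those of C1-sgEED and C1-sgControl between 22.6% and 23.6%.

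The shift in C1-sgKMT2D was spread over most of its cells. The median cell held 28.4% in VIM-rich C1-sgKMT2D (quartiles 25.1% and 31.3%), 26.2% in KRT17-rich C1-sgKMT2D (24.2% and 28.5%), 22.9% in VIM-rich C1-sgEED (21.0% and 24.8%), 22.4% in KRT17-rich C1-sgEED (20.7% and 24.1%) and 23.6% in KRT17-rich C1-sgControl (21.5% and 25.7%). Cells above the KRT17-rich control median made up 86.2% of VIM-rich C1-sgKMT2D cells (84.1% to 88.1%) and 81.3% of KRT17-rich C1-sgKMT2D cells (79.0% to 83.5%). The same cells made up 39.8% of VIM-rich C1-sgEED cells (37.0% to 42.7%) and 30.1% of KRT17-rich C1-sgEED cells (27.4% to 32.9%). Cell ranges overlap widely between all groups, and cells of a line are not replicates.

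Both subunits took part. Large-subunit genes held 15.2% of UMIs in C1-sgKMT2D, 12.6% in C1-sgEED and 13.3% in C1-sgControl, and small-subunit genes held 11.7%, 10.0% and 10.3% in the same lines. The ratio of small-subunit to large-subunit UMIs was 0.769, 0.795 and 0.778 in those lines.

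Depth, mitochondrial share and division markers differ between cells, and the share was read within bands of each. In KRT17-rich cells of 2000 to 4000 UMIs it was 27.0% in C1-sgKMT2D, 22.4% in C1-sgEED and 22.8% in C1-sgControl. In KRT17-rich cells of 6000 to 10000 UMIs it was 26.6%, 22.7% and 23.9%. In each group the cells with 12% to 20% mitochondrial UMIs had a lower ribosomal protein share than those with up to 5%, although the share did not fall at every step between. KRT17-rich cells with 12% to 20% mitochondrial UMIs held 24.7% in C1-sgKMT2D, 20.8% in C1-sgEED and 20.1% in C1-sgControl, and those with up to 5% held 28.2%, 24.6% and 24.7%. Cells with a UMI of MKI67, TOP2A, CDK1 or CCNB1, genes of dividing cells that deeper cells show more readily, also had lower shares than cells without. In VIM-rich C1-sgKMT2D the shares were 26.6% with such a UMI and 29.9% without, and in KRT17-rich C1-sgControl 22.6% with and 24.3% without. C1-sgKMT2D lay above C1-sgControl in every band of KRT17-rich cells, whereas C1-sgEED lay on either side of it.

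**Figure D2:**
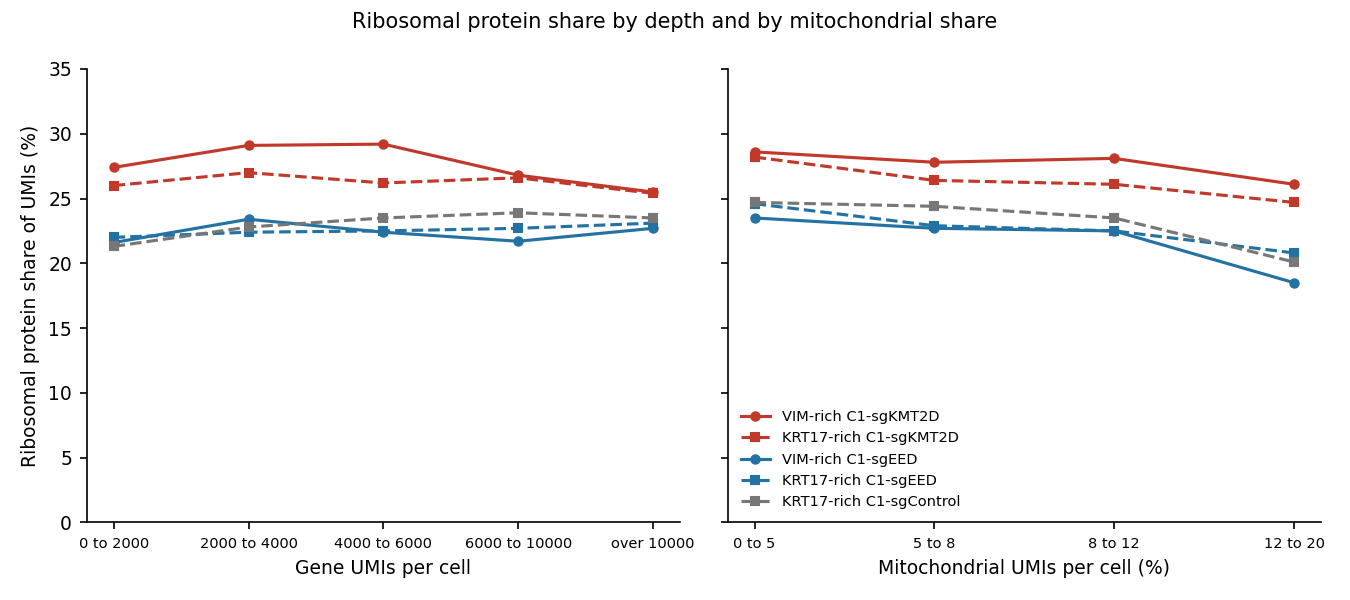
Pooled ribosomal protein share (percent of gene UMIs) by the gene UMIs per cell (left) and the mitochondrial percentage per cell (right), for VIM-rich cells (solid) and KRT17-rich cells (dashed) of each line. The C1-sgKMT2D curves stay above the others in all bands, from 24.7% to 29.2%.

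Most ribosomal protein genes were higher in C1-sgKMT2D than in C1-sgControl, by a modest and similar factor. The ratio was above 1 for 73 of the 83 measured genes and below 1 for 10, with a median of 1.18 and quartiles of 1.11 and 1.21. The interval left out 1 for 80 of them. At least 1.2-fold higher were 32 genes, where 24.5% of all 5343 measured genes passed that limit, and at least 1.2-fold lower were 5, where 28.4% of all genes did. In cells of 2000 to 6000 UMIs alone, 53 were higher and 5 lower, but the share over all genes in those cells is not given here. The median log2 ratio was 0.24 for the ribosomal protein genes and 0.00 for all measured genes. No ribosomal protein gene reached 1.5-fold higher (7.34% of all genes) and 2 were at least 1.5-fold lower (13.8% of all genes).

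Among the highest ratios were those of RPSA (also known as the laminin receptor precursor), RPL26 and RPS24, a gene mutated in some families with Diamond-Blackfan anaemia. RPSA (ENSG00000168028; GRCh38 chr3:39406689-39412542, plus strand) had 3839 CPM in C1-sgKMT2D, 2655 CPM in C1-sgEED and 2822 CPM in C1-sgControl, a ratio of 1.36 (1.34 to 1.38) for C1-sgKMT2D over C1-sgControl. RPL26 (ENSG00000161970; chr17:8377516-8383250, minus strand) had 3333, 2495 and 2488 CPM in the same lines and a ratio of 1.34 (1.32 to 1.36). RPS24 (ENSG00000138326; chr10:78033732-78056813, plus strand) had 4686, 3537 and 3554 CPM and a ratio of 1.32 (1.3 to 1.34). In each of these genes C1-sgKMT2D stood apart while C1-sgEED lay close to C1-sgControl. RPS24 is the only measured ribosomal protein gene of chromosome 10. The other 191 measured genes there had a median log2 ratio of 0.29 for C1-sgKMT2D over C1-sgControl. For C1-sgEED over C1-sgControl their median was 0.28, while RPS24 itself was at -0.01. The part of the chromosome in the RPS24 ratio was not tested.

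The stalk proteins, which recruit elongation factors to the large subunit, were all higher in C1-sgKMT2D than in C1-sgControl. RPLP0 had 3425 CPM in C1-sgKMT2D, 2783 CPM in C1-sgEED and 2636 CPM in C1-sgControl, with ratios to C1-sgControl of 1.3 and 1.06. RPLP1 had 7429.8, 6186 and 6113 CPM in these lines, and RPLP2 had 3064, 2447 and 2535 CPM. Their ratios for C1-sgKMT2D over C1-sgControl were 1.22 and 1.21.

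The genes that went the other way in C1-sgKMT2D were few. RPS27L (ENSG00000185088; chr15:63125872-63158021, minus strand), the paralog of RPS27 with no run over 3 bases within 20 bases of its start, had 133 CPM in C1-sgKMT2D, 312 CPM in C1-sgEED and 284 CPM in C1-sgControl, a ratio of 0.47 (0.443 to 0.499) for C1-sgKMT2D. RPS15A had 1650.1 CPM in C1-sgKMT2D, 2336 CPM in C1-sgEED and 2685 CPM in C1-sgControl, a ratio of 0.615 (0.604 to 0.626). RPS2, a protein of the messenger RNA entry site, had 5662, 7961 and 8113 CPM, a ratio of 0.698 (0.691 to 0.705). RPL13, a large-subunit protein, had 5285, 6026 and 7012 CPM, a ratio of 0.754 (0.746 to 0.762). RPL22L1, the paralog of RPL22, had 328, 652 and 415 CPM, a ratio of 0.791 (0.758 to 0.825).

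**Figure D3:**
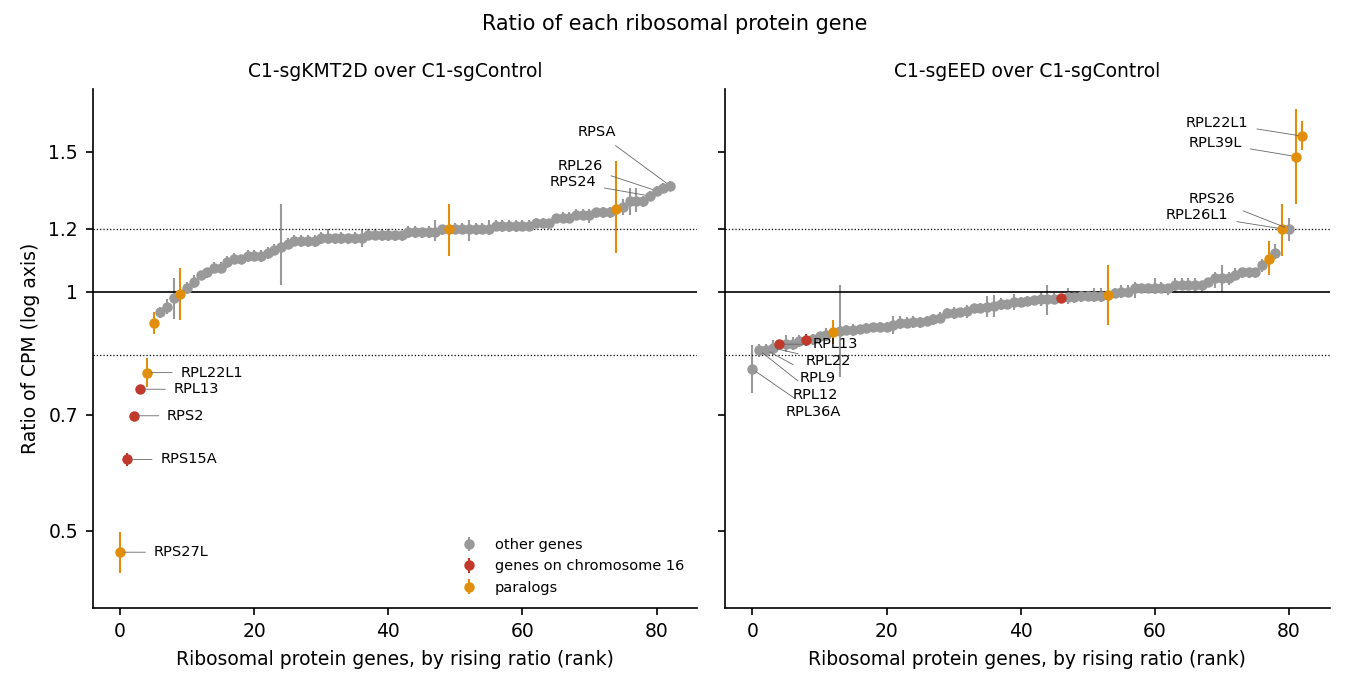
CPM ratio of each of the 83 measured ribosomal protein genes, ranked from low to high, for C1-sgKMT2D over C1-sgControl (left) and C1-sgEED over C1-sgControl (right), with 95% counting intervals on a log axis. Dotted lines mark 1.2-fold; on the left RPS27L (0.47), RPS15A (0.615) and RPS2 (0.698) have the lowest ratios, with RPL13 (0.754, also red) beside RPL22L1 (0.791), on the right the paralogs RPL22L1 and RPL39L (orange) lie above it.

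RPS15A, RPS2 and RPL13 are the measured ribosomal protein genes of chromosome 16. They lie far apart on it, RPS2 (ENSG00000140988) at chr16:1962052-1964860 on the minus strand, RPS15A (ENSG00000134419) at chr16:18781295-18790383 on the minus strand and RPL13 (ENSG00000167526) at chr16:89560657-89566828 on the plus strand. The other 206 measured genes of this chromosome had a median log2 ratio of -0.69 for C1-sgKMT2D over C1-sgControl. Within 10 Mb of RPS2, 56 of 58 other genes were lower in C1-sgKMT2D. Within 10 Mb of RPS15A it was 35 of 35, and of RPL13 28 of 30. The log2 ratios of RPS2, RPS15A and RPL13 themselves were -0.52, -0.70 and -0.41, against neighbour medians of -0.81, -0.77 and -0.71. The same 3 genes had a median ratio of 0.683 in KRT17-rich C1-sgKMT2D over KRT17-rich C1-sgControl cells. The 76 measured genes outside chromosomes 5 and 16 had a median ratio of 1.19, with 71 above 1, and without the genes of those chromosomes the share ratio of C1-sgKMT2D over C1-sgControl was 1.186. Copy number was not measured, and its part in these values was not tested.

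**Figure D4:**
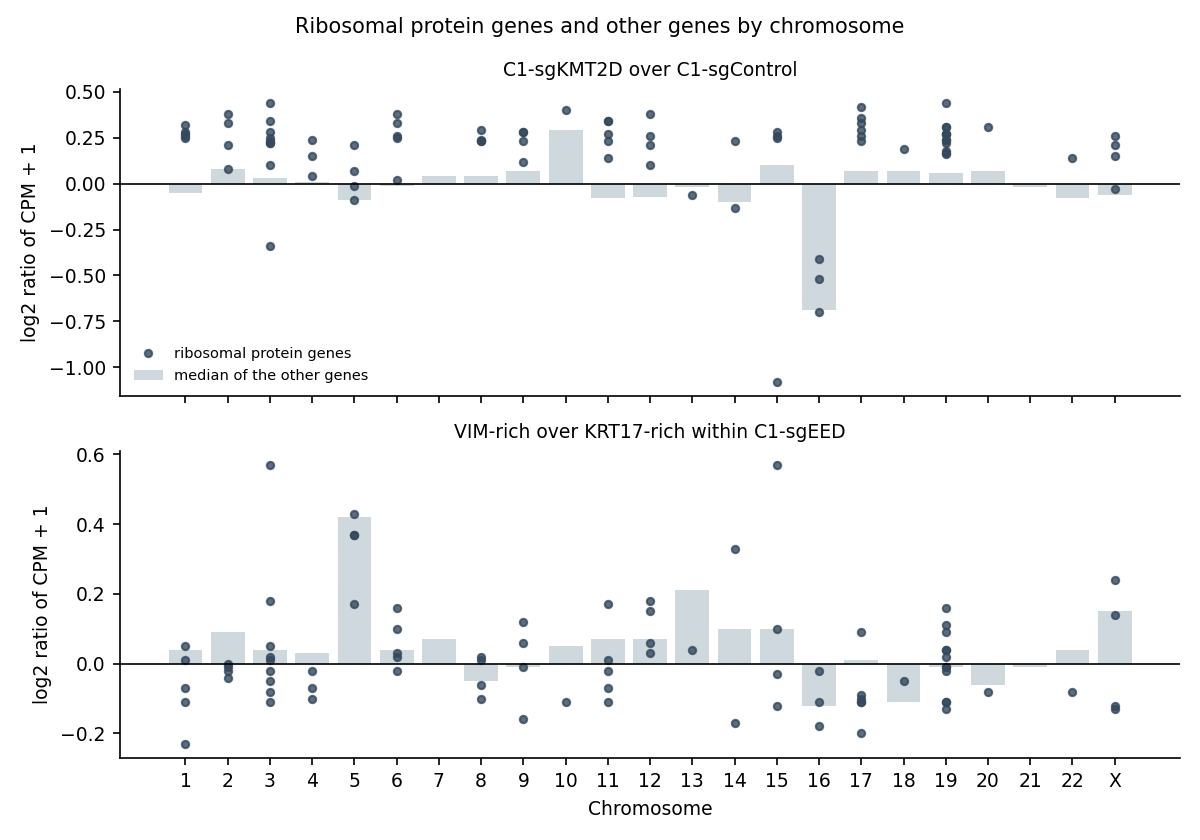
Log2 ratio of CPM (with 1 CPM added) by chromosome: points are ribosomal protein genes, bars the median of the other measured genes. The upper panel gives C1-sgKMT2D over C1-sgControl, with chromosome 16 at -0.69; the lower gives VIM-rich over KRT17-rich cells of C1-sgEED, with chromosome 5 at 0.42.

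In C1-sgEED most ribosomal protein genes lay slightly below C1-sgControl. Of the 83 genes, 27 had a ratio to C1-sgControl above 1 and 56 below 1, with a median of 0.974 and quartiles of 0.906 and 1.01. At least 1.2-fold higher were 4 genes, where 32.0% of all 5508 measured genes passed that limit, and at least 1.2-fold lower was 1, where 18.9% did. The median log2 ratio was -0.04, against 0.11 for all measured genes. At least 1.5-fold higher was 1 gene (10.6% of all genes) and 0 were at least 1.5-fold lower (8.28%). Fewer of the ribosomal protein genes passed either limit than the share over all genes.

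The genes past the limit in C1-sgEED were mostly paralogs. RPL22L1 (ENSG00000163584; chr3:170864875-170870483, minus strand) had 652 CPM in C1-sgEED and 415 CPM in C1-sgControl, a ratio of 1.57 (1.51 to 1.64). RPL39L (ENSG00000163923; chr3:187120948-187180908, minus strand), a paralog best known from testis, had 52.9 CPM in C1-sgEED and 35.8 CPM in C1-sgControl, a ratio of 1.48 (1.29 to 1.7). RPL26L1 had 150.4 and 125 CPM in these lines (ratio 1.2, 1.11 to 1.29), and RPS26, a protein next to the messenger RNA exit channel, 745 and 619.5 CPM (ratio 1.2, 1.16 to 1.24). Both lie on the limit itself. The lowest ratios were those of RPL36A (144 CPM in C1-sgEED, 180.3 CPM in C1-sgControl, 0.799), RPL12 (1975 and 2341 CPM, 0.844), RPL9 (2474 and 2928 CPM, 0.845) and RPL22 (1449.8 and 1705 CPM, 0.85).

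In KRT17-rich cells alone the median ratio of C1-sgKMT2D stayed above 1, but the count past 1.2-fold came close to the share over all genes. For KRT17-rich C1-sgKMT2D over KRT17-rich C1-sgControl, 23 of 83 genes were at least 1.2-fold higher (24.3% of all measured genes were) and 4 at least 1.2-fold lower (27.8% of all genes). The median log2 ratio was 0.20 against 0.00 for all genes, and 72 genes lay above 1. Past 1.5-fold, 0 were higher (6.0% of all genes) and 2 lower (12.4%). The share ratio was 1.113 (1.111 to 1.115). RPL23, which with RPL5 and RPL11 can bind MDM2, led with 2022 CPM in C1-sgKMT2D and 1507 CPM in C1-sgControl (ratio 1.34), next to RPSA (3779 and 2830.2 CPM, 1.34). RPS27L was lowest, with 108 CPM in C1-sgKMT2D and 289 CPM in C1-sgControl, a ratio of 0.375 (0.347 to 0.405). For KRT17-rich C1-sgEED over KRT17-rich C1-sgControl, 2 genes were at least 1.2-fold higher (26.7% of all measured genes) and 1 at least 1.2-fold lower (15.2%). The higher pair was RPL39L (49.5 and 34.8 CPM, ratio 1.42) and RPL22L1 (534 and 409.7 CPM, ratio 1.3), and the lower gene was RPL36AL, the autosomal copy of RPL36A (528 and 661 CPM, ratio 0.799). Past 1.5-fold there were 0 in either direction, where 6.78% of all genes were higher and 4.87% lower. The share ratio was 0.9555 (0.9534 to 0.9576).

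Within C1-sgEED, VIM-rich and KRT17-rich cells held nearly the same total share but divided it differently among genes. At least 1.2-fold higher in VIM-rich cells were 6 genes, where 31.5% of all measured genes passed that limit, and 0 were at least 1.2-fold lower, where 25.2% did. Past 1.5-fold there were 0 in either direction (13.6% of all genes higher, 12.5% lower). Of the 83 genes, 39 lay above 1 and 44 below. RPS27L had 380.3 CPM in VIM-rich and 256 CPM in KRT17-rich C1-sgEED cells, a ratio of 1.48 (1.38 to 1.59). RPL22L1 had 792 and 534 CPM, a ratio of 1.48 (1.41 to 1.56). RPL36AL had 666 and 528 CPM, a ratio of 1.26 (1.2 to 1.33). The lowest ratios belonged to RPL22 (1326 CPM in VIM-rich and 1556 CPM in KRT17-rich C1-sgEED cells, 0.852), RPL38 (734 and 841 CPM, 0.873), RPL13 (5629 and 6362 CPM, 0.885) and RPS29 (733 and 823 CPM, 0.892), none of them past the limit.

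The other 3 genes past the limit all lie on chromosome 5, a grouping made after the values were seen. RPL37 (ENSG00000145592; chr5:40825262-40835335, minus strand) had 2778 CPM in VIM-rich and 2065 CPM in KRT17-rich C1-sgEED cells (ratio 1.35, 1.31 to 1.38). RPS23 (ENSG00000186468; chr5:82273358-82278577, minus strand), a protein of the decoding centre, had 6738 and 5197 CPM (ratio 1.3, 1.28 to 1.32). RPS14 (ENSG00000164587; chr5:150442635-150449756, minus strand), whose loss contributes to the anaemia of the 5q deletion syndrome, had 6169.8 and 4767 CPM (ratio 1.29, 1.27 to 1.32). The last measured gene of chromosome 5, RPL26L1 (ENSG00000037241; chr5:172958729-172969771, plus strand), had 159.9 and 142 CPM (ratio 1.13, 1.02 to 1.25). The other 288 measured genes of the chromosome had a median log2 ratio of 0.42, against 0.05 for all genes. Of the genes within 10 Mb of RPS14, 38 of 45 were higher in VIM-rich cells. Without the genes of chromosomes 5 and 16 the share ratio of VIM-rich over KRT17-rich C1-sgEED cells was 0.9918. RACK1, a small-subunit protein outside the symbol rule that is also on chromosome 5, had 3249 CPM in VIM-rich and 2655 CPM in KRT17-rich C1-sgEED cells (ratio 1.22). The part of copy number or of clones was not tested.

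Within C1-sgKMT2D, the VIM-rich cells were slightly higher across most genes. The ratio of VIM-rich over KRT17-rich cells was above 1 for 64 of 83 genes, with a median of 1.06. At least 1.2-fold higher were 2 genes (19.0% of all measured genes) and 0 were at least 1.2-fold lower (19.2%). The count depends on the cells taken: it was 12 (10 higher, 2 lower) in cells of 2000 to 6000 UMIs and 10 (9 higher, 1 lower) where 1 of VIM and KRT17 had to be at least 3-fold the other. The shares over all genes in those cells are not given here. Past 1.5-fold, 1 was higher (6.23% of all genes) and 0 were lower (6.74%). RPS27L had 168 CPM in VIM-rich and 108 CPM in KRT17-rich C1-sgKMT2D cells, a ratio of 1.55 (1.41 to 1.7), and RPL37 had 2551 and 2045 CPM, a ratio of 1.25 (1.22 to 1.28). RPS9 had 2890.5 and 2449 CPM, a ratio of 1.18. RPL26L1 was lowest at 0.834 (111 CPM in VIM-rich, 133 CPM in KRT17-rich), followed by RPL22L1, RPL23 (1783 and 2022 CPM, 0.882) and RPS20 (1542 and 1702 CPM, 0.906). RPL22L1 went the other way from its course in C1-sgEED, with 303 CPM in VIM-rich and 347 CPM in KRT17-rich C1-sgKMT2D cells (ratio 0.872, 0.821 to 0.926). On chromosome 5, the other 245 measured genes of that chromosome had a median log2 ratio of 0.05.

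Of the 7 comparisons made, VIM-rich C1-sgKMT2D against VIM-rich C1-sgEED cells gave the largest share ratio and the most genes past 1.2-fold. For VIM-rich C1-sgKMT2D over VIM-rich C1-sgEED, 54 of 83 genes were at least 1.2-fold higher (21.5% of all measured genes) and 6 at least 1.2-fold lower (40.7%). Past 1.5-fold, 3 were higher (8.44% of all genes) and 2 lower (19.3%). The median log2 ratio was 0.37, against -0.14 for all genes, and the share ratio was 1.229 (1.226 to 1.232). RPL22 led with 2149 CPM in VIM-rich C1-sgKMT2D and 1326 CPM in VIM-rich C1-sgEED cells, a ratio of 1.62 (1.57 to 1.67). RPSA had 3926 and 2546 CPM (1.54), RPL11, which binds 5S ribosomal RNA, 6042 and 4004 CPM (1.51), and RPS25, known for its part in internal initiation, 2887 and 1942 CPM (1.49). RPL22L1 was lowest, with 303 CPM in VIM-rich C1-sgKMT2D and 792 CPM in VIM-rich C1-sgEED cells, a ratio of 0.382 (0.361 to 0.405). RPS27L had 168 and 380.3 CPM (0.442), RPL26L1 111 and 159.9 CPM (0.695) and RPS2 5815 and 7895 CPM (0.737).

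Some paralogs differed between the lines in their part of the pair with the parent gene. RPL22, an RNA-binding protein of the large subunit, is known from mouse to restrain its own paralog RPL22L1. RPL22L1 made up 13.4% (13.0% to 13.7%) of the UMIs of the pair in C1-sgKMT2D, 31.0% (30.4% to 31.7%) in C1-sgEED and 19.6% (19.0% to 20.1%) in C1-sgControl. By state it was 12.4% in VIM-rich and 14.2% in KRT17-rich C1-sgKMT2D cells, 37.4% in VIM-rich and 25.5% in KRT17-rich C1-sgEED cells, and 19.3% in KRT17-rich C1-sgControl cells. The levels of the 2 genes went in opposite directions in each knockout: RPL22 itself had 2124 CPM in C1-sgKMT2D, 1449.8 CPM in C1-sgEED and 1705 CPM in C1-sgControl.

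RPS27L made up 6.14% (5.87% to 6.42%) of the UMIs of RPS27L and RPS27 in C1-sgKMT2D, 15.6% (15.1% to 16.1%) in C1-sgEED and 14.2% (13.7% to 14.7%) in C1-sgControl. It was higher in VIM-rich than in KRT17-rich cells of both knockouts, 7.01% and 5.39% in C1-sgKMT2D and 18.1% and 13.4% in C1-sgEED. RPL26L1 made up 3.6%, 5.69% and 4.8% of its pair with RPL26 in C1-sgKMT2D, C1-sgEED and C1-sgControl, and RPL39L 1.63%, 2.43% and 1.43% of its pair with RPL39. RPL7L1, a nucleolar relative of RPL7 that acts in large-subunit assembly, stayed at 4.08%, 4.31% and 4.0%, with intervals that overlap. RPL36AL made up 77.5%, 80.5% and 78.7% of its pair with RPL36A. The paralog's part was lower in C1-sgKMT2D than in C1-sgControl for RPL22L1, RPS27L and RPL26L1, whose intervals do not overlap. RPL26L1 itself had 124 CPM in C1-sgKMT2D and 125 CPM in C1-sgControl, while its parent RPL26 had 3333 and 2488 CPM. For RPL22L1, RPS27L, RPL26L1 and RPL39L the paralog's part was higher in C1-sgEED than in C1-sgControl, with intervals apart. In KRT17-rich cells RPS27L went the other way, with 13.4% (12.7% to 14.0%) in C1-sgEED and 14.3% (13.8% to 14.8%) in C1-sgControl. There the intervals of RPL26L1 overlapped, with 5.2% (4.85% to 5.57%) in C1-sgEED and 4.77% (4.51% to 5.05%) in C1-sgControl.

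**Figure D5:**
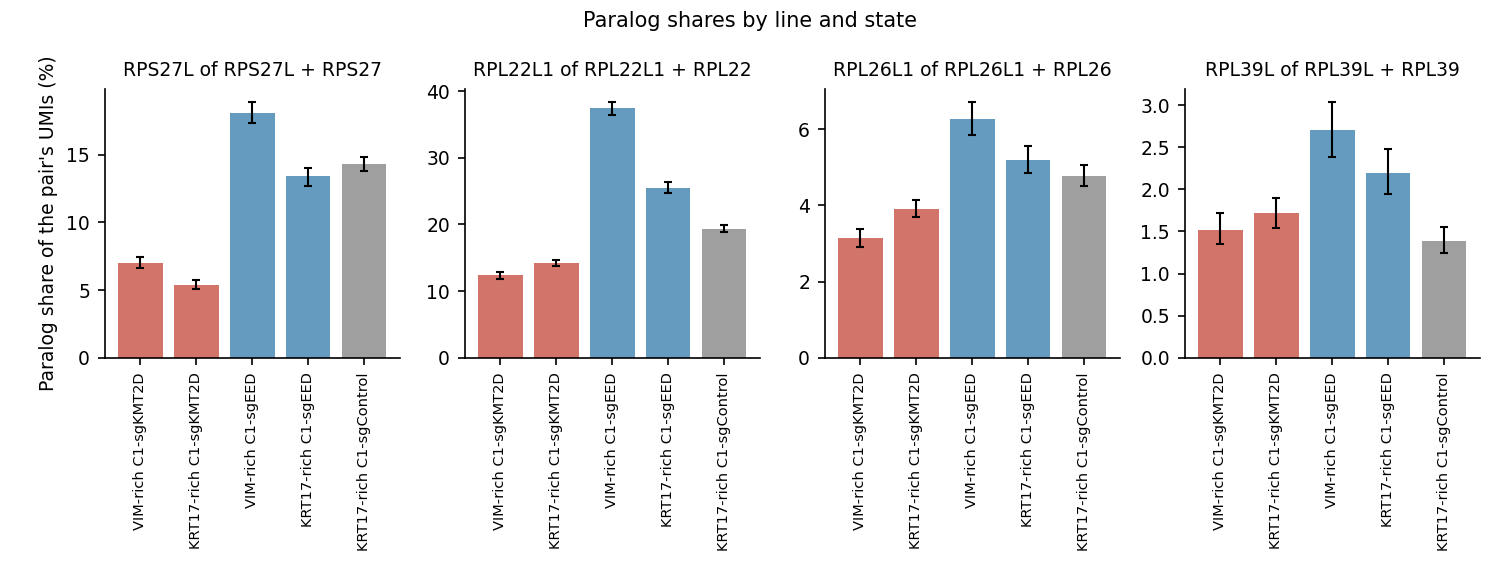
Percentage of a pair's UMIs that belongs to the paralog, by line and state, with 95% Clopper-Pearson intervals; each panel has its own axis from 0. RPL22L1 reaches 37.4% in VIM-rich C1-sgEED cells, against 12.4% in VIM-rich C1-sgKMT2D cells and 19.3% in KRT17-rich C1-sgControl cells.

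Some levels are uncertain as those of single genes. RPS10, RPL36A and RPL17 overlap read-through genes that have rows of their own in the matrix, and many ribosomal protein genes have processed copies in the genome whose reads the authors' counting could divide. The matrix holds 4 rows named as ribosomal protein pseudogenes, which together held 1.41% of UMIs in C1-sgKMT2D, 1.16% in C1-sgEED and 1.14% in C1-sgControl.

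Other transcripts of the translation apparatus were read from lists. Of the ribosomal proteins outside the symbol rule, FAU had 1605 CPM in C1-sgKMT2D, 1497 CPM in C1-sgEED and 1491 CPM in C1-sgControl. RACK1 had 3507, 2927 and 3072 CPM in the same lines.

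A list of translation factors and other genes taken as TOP class, whose motifs were not read here, stayed mostly within 1.2-fold of C1-sgControl in both knockouts. For C1-sgKMT2D over C1-sgControl, 2 of 17 measured were at least 1.2-fold higher (24.5% of all genes) and 0 lower (28.4%), with a median log2 ratio of 0.15. EEF1B2, a subunit of the exchange factor of elongation factor 1, had 1494 CPM in C1-sgKMT2D and 1082 CPM in C1-sgControl (ratio 1.38). EEF1A1, elongation factor 1 itself, had 7695 and 7819.8 CPM in the same lines (ratio 0.984). For C1-sgEED over C1-sgControl, 0 were at least 1.2-fold higher (32.0% of all genes) and 4 at least 1.2-fold lower (18.9%), with a median of -0.16. These were TPT1, a growth-related protein (4421 CPM in C1-sgEED, 6230 CPM in C1-sgControl, ratio 0.71), the poly(A)-binding protein PABPC1 (585 and 786 CPM, 0.745), the initiation factor EIF4B (161 and 213 CPM, 0.755) and EEF1A1 (5929.6 and 7819.8 CPM, 0.758). For VIM-rich C1-sgKMT2D over VIM-rich C1-sgEED, 11 of 17 were at least 1.2-fold higher (21.5% of all genes) and 0 lower (40.7%).

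Host genes of small nucleolar RNAs, many of which also begin with pyrimidine runs, were measured for 5 of the 11 listed. At least 1.2-fold higher in C1-sgKMT2D than in C1-sgControl were 4 of them (24.5% of all genes), with a median log2 ratio of 0.53. EPB41L4A-AS1 had 110.2 CPM in C1-sgKMT2D, 55.2 CPM in C1-sgEED and 64.2 CPM in C1-sgControl, and SNHG7 had 154, 107 and 106 CPM. ZFAS1 had 904, 592 and 775 CPM.

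Most measured genes of ribosome assembly were higher in C1-sgKMT2D. Of 26 measured, 17 were at least 1.2-fold higher (24.5% of all genes) and 1 at least 1.2-fold lower (28.4%) than in C1-sgControl, with a median log2 ratio of 0.34. GNL3, the nucleolar GTPase nucleostemin, had 168 CPM in C1-sgKMT2D, 110.4 CPM in C1-sgEED and 105 CPM in C1-sgControl. DDX21, a nucleolar helicase, had 221, 140.4 and 148 CPM, and NCL (nucleolin) 417, 394 and 317 CPM. The lower gene, NIP7, lies on chromosome 16. For C1-sgEED over C1-sgControl, 8 of 27 were at least 1.2-fold higher, near the 32.0% of all genes, and 1 lower (18.9% of all genes). Their median was 0.17, against 0.11 for all genes. Of 8 measured genes of RNA polymerase I and its factors, which transcribe ribosomal RNA, 6 were at least 1.2-fold higher in C1-sgKMT2D (24.5% of all genes), led by TAF1D (261 CPM in C1-sgKMT2D, 155 CPM in C1-sgControl, ratio 1.69). In C1-sgEED it was 1 higher (32.0% of all genes) and 1 lower (18.9%) of 7.

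MYC, a transcription factor that activates many genes of ribosome production, had 341 CPM in C1-sgKMT2D, 197 CPM in C1-sgEED and 272 CPM in C1-sgControl, with ratios to C1-sgControl of 1.25 (1.19 to 1.31) and 0.724 (0.683 to 0.767). In KRT17-rich cells MYC had 272 CPM in C1-sgEED and 276 CPM in C1-sgControl, a ratio of 0.983 (0.921 to 1.05). It had 291 CPM in VIM-rich C1-sgKMT2D and 111 CPM in VIM-rich C1-sgEED cells, a ratio of 2.61 (2.37 to 2.89). MXD4, which competes with MYC for its partner MAX, had 80.7 and 186 CPM in the same groups (ratio 0.435). The transcript of the TOP regulator LARP1 differed less, with 82.3 CPM in C1-sgKMT2D, 70.5 CPM in C1-sgEED and 78.9 CPM in C1-sgControl. These genes come from a list of 10 growth regulators, 7 of them measured. For C1-sgKMT2D over C1-sgControl, 1 was at least 1.2-fold higher (24.5% of all genes) and 1 lower (28.4%), with a median log2 ratio of -0.08. For VIM-rich C1-sgKMT2D over VIM-rich C1-sgEED, 2 were higher (21.5%) and 3 lower (40.7%), with a median of 0.09.

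Mitochondrial ribosomal proteins are encoded in the nucleus for the separate ribosome of mitochondria. Of 71 measured, 39 were at least 1.2-fold higher (32.0% of all genes) and 1 lower (18.9%) in C1-sgEED than in C1-sgControl, with a median log2 ratio of 0.29 against 0.11 for all genes. In C1-sgKMT2D 29 of 71 were at least 1.2-fold higher (24.5% of all genes) and 5 lower (28.4%), with a median of 0.21 against 0.00. The cytosolic set had medians of 0.24 in C1-sgKMT2D and -0.04 in C1-sgEED.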

How the data were processed

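The authors deposited UMI counts per gene and hashtag for each barcode, as unnormalised whole numbers. The submitters' processing notes name Cell Ranger 3.0.2 and GRCh38. Barcodes with at least 500 genes and at most 20% mitochondrial UMIs were kept (9193 of 10336). Hashtag calls used a Gaussian mixture of 2 components fitted to log10 hashtag counts, with the value where the components cross as the limit. Barcodes positive for several hashtags (827) or none (26) were left out. Hashtags 4, 3 and 1 are C1-sgKMT2D, C1-sgEED and C1-sgControl per the labels, and hashtag 2 has no line in them. Doublets within a hashtag were left in.

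UMIs were summed per group and scaled to CPM. Genes of at least 20 CPM in either group were measured. Shares have Clopper-Pearson intervals and ratios exact conditional binomial intervals. Log2 ratios add 1 CPM. With 1 sample per line there is no test, and genes are counted past 1.2-fold or 1.5-fold. Genes named are the 4 highest and 4 lowest ratios of each of 7 comparisons, the paralogs with their parents, the stalk genes, RPSA and chromosome 16, together with examples from the lists. Some genes that this rule takes in are not reported here. On simulated counts 95.8% of intervals over 4991 genes covered the true ratio, in each comparison of a knockout with C1-sgControl. Gene positions come from GENCODE 29 on GRCh38. The genes, lists and comparisons were chosen with earlier results of these data known. Python 3.11.15, numpy 2.4.6, scipy 1.17.1, pandas 2.3.3 and scikit-learn 1.9.0 were used.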

Additional observations from a re-analysis of the deposited data

Results flagged for a closer look

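The ribosomal protein share moved to opposite sides of C1-sgControl in the 2 knockouts, with a ratio of 1.143 for C1-sgKMT2D and 0.9592 for C1-sgEED. In KRT17-rich cells alone the ratios were 1.113 for C1-sgKMT2D and 0.9555 for C1-sgEED. The side of C1-sgEED depends on the filter. With no mitochondrial limit its ratio was 1.001 in the whole line and 0.9912 in KRT17-rich cells. RPL22L1 also went opposite ways, with a ratio of 0.791 for C1-sgKMT2D and 1.57 for C1-sgEED over C1-sgControl. These differences between the knockouts were not tested, since each line is 1 sample, and the ratios share the control cells.

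The 1934 cells positive for hashtag 2, which has no line in the labels and enters no comparison, held a ribosomal protein share of 25.8%, above the 23.6% of C1-sgControl. The difference was uneven across genes. RPS3 had 9892 CPM in the hashtag 2 cells and 4978 CPM in C1-sgControl, and RPL8 had 8013 and 4296 CPM. RPS7 went the other way, with 1655 and 3195 CPM. The share is a signal in data outside the comparisons.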

How the results depend on the processing

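No paired analysis was possible because each line is 1 sample. For C1-sgKMT2D over C1-sgControl the share ratio stayed above 1 in 8 of 8 alternatives: 1.192 with no mitochondrial limit, 1.14 without mitochondrial genes in the total, 1.172 as a mean of per-cell shares, 1.211 in cells of 2000 to 6000 UMIs, 1.164 without cycling cells and 1.186 without chromosomes 5 and 16, the last chosen after seeing the data. In the same order, C1-sgEED over C1-sgControl reversed to 1.001, then gave 0.9534, 0.9694, 0.9781 and 0.9668. KRT17-rich C1-sgKMT2D over KRT17-rich C1-sgControl gave 1.155, 1.108, 1.129, 1.134, and 1.153 without those chromosomes, and KRT17-rich C1-sgEED over KRT17-rich C1-sgControl 0.9912, 0.9587, 0.9603, 0.9637, 0.9585 and 0.961. A 3-fold rule for the states gave 1.103 and 0.9478. VIM-rich over KRT17-rich C1-sgEED cells reversed to 0.9833 without mitochondrial genes and 0.9918 without those chromosomes, with 1.007, 1.015, 1.024 and 1.021 under no limit, per-cell means, the depth window and no cycling cells, 1.008 under the 3-fold rule and 1.009 with ribosomal proteins outside the symbol rule added. Within C1-sgKMT2D the values were 1.063, 1.072, 1.104 and 1.104 without mitochondrial genes, by cell, in the depth window and without cycling cells, 1.082 under the 3-fold rule and 1.062 without those chromosomes. VIM-rich C1-sgKMT2D over VIM-rich C1-sgEED gave 1.249, 1.242, 1.269 and 1.254 for the same settings, 1.249 under the 3-fold rule, 1.225 with those proteins added and 1.285 without those chromosomes. The cause of the reversals was not tested.

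Counts past 1.2-fold moved as follows, and the shares over all genes under these settings are not given here. C1-sgEED over C1-sgControl had 3 genes without mitochondrial genes in the total, and its KRT17-rich counterpart 5 with no CPM minimum. C1-sgKMT2D over C1-sgControl had 58 in the depth window. Relative to the ribosomal protein total, which removes the common shift, it had 7 (0 higher, 7 lower), its KRT17-rich counterpart 8, VIM-rich over KRT17-rich C1-sgKMT2D cells 4, and VIM-rich C1-sgKMT2D over VIM-rich C1-sgEED 18. VIM-rich over KRT17-rich C1-sgKMT2D cells had 12 in the depth window, 10 under the 3-fold rule and 4 with no minimum. That scale divides every ratio of a comparison by the same share ratio, so ratios between 1 and the share ratio change side. RPL7L1, among others, did so at 0.979 for VIM-rich C1-sgKMT2D over VIM-rich C1-sgEED. Of the named ratios, 1 for each gene and comparison, 185 moved beyond counting error. That count follows from the division and is no result about single genes. Counting error is small at this depth. The spread between cultures is unknown.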

Other observations

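The cells positive for hashtag 2 had 610.1 CPM of RPL22L1, 93.8 CPM of RPL39L, 263 CPM of RPS27L and 1373 CPM of RPS25. RPS25 had 2763 CPM in C1-sgKMT2D, 1931 CPM in C1-sgEED and 2187 CPM in C1-sgControl, and RPL39L had 45.6, 52.9 and 35.8 CPM in those lines. RPS2, RPS15A and RPL13 were at 9240.4, 2679 and 6214 CPM in the hashtag 2 cells. Of these cells 1319 were VIM-rich and 580 KRT17-rich, with ribosomal protein shares of 26.0% and 25.4%. The labels give them no line, so these are values only.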
